A study of Mus musculus with 4 samples.

Results

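The genes described here are 9 of the 57126 features counted in cells of the mouse cerebral cortex: the nuclear factor I (NFI) genes Nfia, Nfib and Nfix, the transcription factors Zbtb20 and Sox9, the cytokine receptor chains Lifr and Il6st, their downstream factor Stat3, and the growth factor receptor Egfr. They were taken by symbol, and each symbol matched 1 feature. Counts came from 4 libraries, each of 1 mouse: a Tsku knockout at the day of birth (P0 KO), a wild type at P0 (P0 WT), an embryo of day 14.5 labelled knockout (the library labelled E14.5 KO) and a wild-type embryo of that day (E14.5 WT). Tsku encodes Tsukushi, a secreted proteoglycan of the small leucine-rich family, and the study is titled for an imbalance of neuron and glia production without it. The sources used here name neither the allele nor the strain nor any further genotype. With 1 animal a group there is no test between groups: every interval below is a 95% interval of counting error alone, which holds no spread between animals.

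Tsku counts contradicted 1 label. The deposited barcodes held 0 Tsku counts in P0 KO, 42 in P0 WT, 74 in the library labelled E14.5 KO and 54 in E14.5 WT, which is 5.13 CPM (counts scaled to a common total of a sum) in the library labelled E14.5 KO against 9.63 in E14.5 WT. Differences at E14.5 are therefore between 2 embryos, of which the one labelled knockout still had Tsku RNA. That embryo also held 6719 counts of Xist, which coats the inactive X, against 3 in E14.5 WT, so genotype label and sex cannot be told apart at E14.5. P0 KO and P0 WT held 1 Xist count each. After filtering, 1436, 1047, 4107 and 620 barcodes remained in P0 KO, P0 WT, the library labelled E14.5 KO and E14.5 WT, at a median of 5060, 4807, 2829 and 7345.5 counts a barcode. At most 2 barcodes were shared by any pair of libraries.

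Cortical radial glia are the dividing stem cells that line the ventricle; they make projection neurons first, directly or through intermediate progenitors, and later turn to astrocytes and oligodendrocyte precursors. NFI proteins and SOX9 are known to act early in this switch, where they open and activate astrocyte genes. Cytokines of the leukaemia inhibitory factor family signal through LIFR and the shared chain gp130, encoded by Il6st, to phosphorylate STAT3, which activates astrocyte genes such as Gfap and the feedback inhibitor Socs3. EGFR marks late progenitors and responds to epidermal growth factor ligands.

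Barcodes were placed in cell type gates by their summed counts of marker panels that hold none of the 9 genes. The radial glia gate held 106 barcodes in P0 KO, 65 in P0 WT, 517 in the library labelled E14.5 KO and 59 in E14.5 WT. The astrocyte gate held 237 in P0 KO and 125 in P0 WT, with 1 barcode in each E14.5 library, and the oligodendrocyte lineage gate held 142 and 51 at P0. The projection neuron gate held 479, 445, 1488 and 269 barcodes, the inhibitory neuron gate 104, 124, 600 and 87, and the intermediate progenitor gate 90, 60, 439 and 62, each in the order P0 KO, P0 WT, library labelled E14.5 KO and E14.5 WT. Most gates were led by markers of their own panel. At P0 the radial glia gate had none of its markers among its 10 leading genes: those of P0 KO included Foxj1, Rsph1 and Ccdc153, which belong to cells with motile cilia, and those of P0 WT included Top2a, Uhrf1 and Rrm2, which belong to the cell cycle. In E14.5 WT its leading genes held 2 astrocyte markers, Aldoc and Apoe, beside 2 of its own. These facts stand beside every radial glia value below. Orders of gates and highest or lowest levels below are among the neural gates alone.

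Promoter sequences are shown for the 4 members with a single RefSeq start whose window held a motif searched here, with Socs3 added as the feedback gene of the cytokine pathway, to place those letters in genes that the comparisons below turn on. Each runs from 250 bases before to 50 after the RefSeq start, 5′ to 3′ on the strand of the gene, in the build GRCm38.p6. Capitals mark a core NFI motif (TTGGC, read on either strand, so that its reverse complement GCCAA is capitalised too) or a STAT motif (TTCNNNGAA, the same on both strands).
Egfr (chr11:16751953-16752252, plus strand): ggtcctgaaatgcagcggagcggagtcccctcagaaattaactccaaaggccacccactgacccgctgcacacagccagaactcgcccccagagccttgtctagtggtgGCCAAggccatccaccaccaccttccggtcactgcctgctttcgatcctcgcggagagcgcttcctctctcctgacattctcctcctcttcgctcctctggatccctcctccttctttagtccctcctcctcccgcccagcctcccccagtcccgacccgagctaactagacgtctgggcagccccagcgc
Stat3 (chr11:100939491-100939790, minus strand): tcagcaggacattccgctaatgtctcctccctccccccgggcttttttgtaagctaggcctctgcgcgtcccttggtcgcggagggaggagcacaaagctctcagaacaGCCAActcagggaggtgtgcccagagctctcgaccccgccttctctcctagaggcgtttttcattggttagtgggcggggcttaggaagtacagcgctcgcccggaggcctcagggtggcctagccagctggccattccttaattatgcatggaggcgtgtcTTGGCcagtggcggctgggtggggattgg
Il6st (chr13:112463820-112464119, plus strand): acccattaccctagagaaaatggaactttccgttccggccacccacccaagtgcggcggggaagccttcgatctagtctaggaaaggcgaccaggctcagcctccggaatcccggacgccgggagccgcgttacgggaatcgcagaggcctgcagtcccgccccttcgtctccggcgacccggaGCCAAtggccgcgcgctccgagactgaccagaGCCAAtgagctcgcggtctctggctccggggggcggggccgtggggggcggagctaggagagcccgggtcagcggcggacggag
Zbtb20 (chr16:43247034-43247333, plus strand): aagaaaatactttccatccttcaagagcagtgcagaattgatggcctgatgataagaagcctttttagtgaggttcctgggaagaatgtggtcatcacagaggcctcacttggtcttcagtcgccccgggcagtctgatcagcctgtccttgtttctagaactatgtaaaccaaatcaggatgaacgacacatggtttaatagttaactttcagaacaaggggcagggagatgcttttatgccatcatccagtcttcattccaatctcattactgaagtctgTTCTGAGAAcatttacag
Socs3 (chr11:117969317-117969616, minus strand): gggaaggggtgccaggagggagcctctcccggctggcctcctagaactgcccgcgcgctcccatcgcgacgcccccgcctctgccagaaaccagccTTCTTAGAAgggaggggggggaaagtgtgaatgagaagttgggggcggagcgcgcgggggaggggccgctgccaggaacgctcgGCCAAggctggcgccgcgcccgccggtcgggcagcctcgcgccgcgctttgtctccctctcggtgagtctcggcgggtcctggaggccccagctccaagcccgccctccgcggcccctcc
Of the windows shown, those of Egfr, Stat3, Il6st and Socs3 held the core NFI motif and those of Zbtb20 and Socs3 the STAT motif. Of 32851 mouse promoter windows of this length, 46.7% hold the core NFI motif and 8.30% the STAT motif, so a match is common and is a description of the letters alone. The full palindrome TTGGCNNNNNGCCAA is in 12 of all windows and in none of the members' windows. In all, 7 of the 9 members had a window, some with several starts: Nfia had neither motif, and the several starts of Nfix and Lifr held between 0 and 2 core NFI motifs, with a STAT motif at 1 start of Nfix.

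Nfib and Nfix were highest in projection neurons in every library. NFIB and NFIX are DNA-binding factors needed for normal forebrain development, NFIB among others for the maturation of deep-layer projection neurons. In the projection neuron gate Nfib stood at 4283 CPM (95% interval 4205 to 4362) in P0 KO, 3832 (3754 to 3911) in P0 WT, 4627 (4569 to 4684) in the library labelled E14.5 KO and 4370 (4288 to 4454) in E14.5 WT. The corresponding levels in the radial glia gate were 1826, 1772, 1592 and 1894 CPM, and in the astrocyte gate 1254 in P0 KO and 1231 in P0 WT. Intermediate progenitors came next to projection neurons for both genes in all 4 libraries, with intervals that did not overlap, and at P0 the order ran on downward through radial glia and astrocytes to the oligodendrocyte lineage. Nfix in the projection neuron gate stood at 2990 CPM in P0 KO, 2725 in P0 WT, 1445 in the library labelled E14.5 KO and 1856 in E14.5 WT, and in the astrocyte gate at 584 in P0 KO and 469 in P0 WT.

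Nfia, the NFI gene best known for the onset of gliogenesis, was highest in projection neurons in the library labelled E14.5 KO alone. In the radial glia gate it stood at 1002 CPM (934 to 1074) in P0 KO, 1168 (1081 to 1261) in P0 WT, 764 (724 to 805) in the library labelled E14.5 KO and 1003 (929 to 1082) in E14.5 WT. In the astrocyte gate it stood at 917 CPM (871 to 965) in P0 KO and 1046 (976 to 1121) in P0 WT, and in the projection neuron gate at 704, 487, 1126 and 897 CPM over the 4 libraries in the order above. In the P0 libraries and in E14.5 WT the intervals of radial glia and intermediate progenitors overlapped at the top of the order, while in the library labelled E14.5 KO projection neurons and intermediate progenitors did. Inhibitory neurons were the lowest neural gate in all 4 libraries, at 399, 267, 156 and 198 CPM.

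The 3 NFI genes varied unequally over gates, and the make-up of their summed counts differed by cell type. Nfia made up 33.3% (31.9 to 34.7, exact binomial) of NFI counts in the astrocyte gate of P0 KO and 38.1% (36.0 to 40.2) in that of P0 WT, against 8.83% (8.45 to 9.22) and 6.92% (6.54 to 7.31) in the projection neuron gate of the same libraries. In the radial glia gate the Nfia share was 25.7%, 30.9%, 24.2% and 27.4% in P0 KO, P0 WT, the library labelled E14.5 KO and E14.5 WT. Nfix took a larger share of NFI counts in projection neurons at P0 than at E14.5. It made up 37.5% in P0 KO and 38.7% in P0 WT, against 20.1% in the library labelled E14.5 KO and 26.1% in E14.5 WT. The genes differ in length, and a share compares gates for the same gene, not genes with each other. Nfia overlaps E130114P18Rik on the opposite strand (521, 292, 785 and 240 counts in the 4 libraries) and Nfib overlaps Gm11266 (235, 149, 422 and 156). No source used here says whether the counting used strand.

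**Figure D1:**
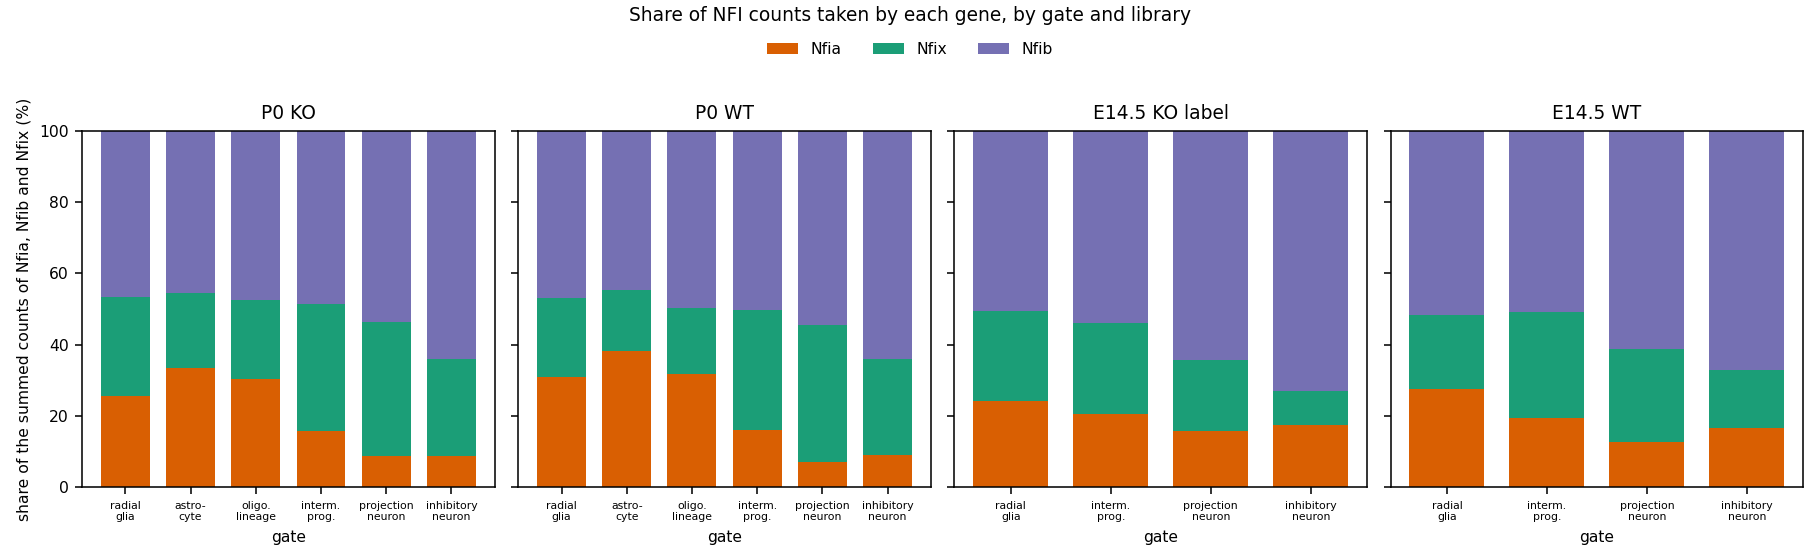
Stacked shares (% of summed Nfia, Nfix and Nfib counts, y axis) in each gate of each library (x axis). The Nfia share is at 33.3% and 38.1% in the P0 KO and P0 WT astrocyte gates and at 8.83% and 6.92% in their projection neuron gates.

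Zbtb20, a zinc finger repressor known for hippocampal fate and for astrocyte production, was highest in intermediate progenitors in every library, while the place of projection neurons differed between the ages. Intermediate progenitors held 3215 CPM in P0 KO and 3422 in P0 WT, and 893 in the library labelled E14.5 KO and 1344 in E14.5 WT, where their intervals overlapped those of radial glia. The P0 projection neuron gate followed, at 2860 CPM (2796 to 2925) in P0 KO and 1730 (1678 to 1784) in P0 WT. At E14.5 projection neurons were at the bottom of the order, with 261 CPM (248 to 275) in the library labelled E14.5 KO and 810 (775 to 847) in E14.5 WT, where the interval overlapped that of inhibitory neurons. Zbtb20 was counted in 94.8% of projection neuron barcodes of P0 KO, 84.3% of P0 WT, 27.8% of the library labelled E14.5 KO and 51.7% of E14.5 WT, at median depths of 4824, 4571, 2969 and 7375 counts. In barcodes thinned to 1500 counts, gated again on the thinned counts, these shares were 85.7%, 70.1%, 20.1% and 33.7%; thinning left out 1 shallower barcode in P0 KO, 1 in P0 WT, 141 in the library labelled E14.5 KO and 1 in E14.5 WT. The microglia gate, whose cells are of another lineage, gave 39.1% in P0 KO, 28.6% in P0 WT and 8.33% in the library labelled E14.5 KO, or 13.3%, 9.52% and 4.44% after thinning.

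Sox9, a factor of neural stem cells and astrocytes, was highest in radial glia and glial gates. Radial glia held it at 666 CPM (611 to 725) in P0 KO, 519 (461 to 582) in P0 WT, 901 (857 to 946) in the library labelled E14.5 KO and 775 (710 to 844) in E14.5 WT. Projection neurons held 22.0, 14.7, 19.1 and 10.2 CPM in the same order, so that the highest gate lay 45.9-fold, 78.3-fold, 47.2-fold and 75.6-fold above the lowest. The highest gate at P0 differed between libraries: astrocytes led in P0 KO, at 1009 CPM against 704 (649 to 763) in the oligodendrocyte lineage, and the oligodendrocyte lineage led in P0 WT, at 1150 (1032 to 1277) against 959 in astrocytes. After thinning, 73.0% of astrocyte barcodes of P0 KO and 72.4% of P0 WT had a Sox9 count, against 3.12% and 2.19% of projection neuron barcodes. Unthinned, these were 97.0% and 97.6% against 9.60% and 5.84%. Sox9 was itself among the 10 leading genes of the radial glia gate in the library labelled E14.5 KO, although no gate used it.

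The receptor chains Lifr and Il6st were low in counts and, among neural gates, highest in glia at P0. Lifr, the ligand-specific chain, stood at 70.9 CPM (58.5 to 85.1) in astrocytes of P0 KO and 59.3 (43.4 to 79.1) in those of P0 WT, and in the radial glia gate at 42.2 (29.2 to 59.0) in P0 KO, 38.8 (24.3 to 58.8) in P0 WT, 13.4, from 24 counts, in the library labelled E14.5 KO and 23.7 (13.6 to 38.6) in E14.5 WT. At P0 the astrocyte, oligodendrocyte lineage and radial glia intervals overlapped one another and lay above those of the neuronal gates, and at E14.5 no gate stood apart from its neighbour. Lifr had 0 counts in intermediate progenitors of P0 KO, which allows a level of up to 5.50 CPM for 3 counts. Il6st, which encodes gp130, stood at 178 CPM (158 to 199) in astrocytes of P0 KO and 159 (132 to 189) in those of P0 WT, against 14.9 and 12.6 in projection neurons. In the radial glia gate it stood at 77.0 CPM (59.0 to 98.7) in P0 KO, 65.3 (46.0 to 90.0) in P0 WT, 45.9 (36.5 to 56.9) in the library labelled E14.5 KO and 56.4 (39.9 to 77.4) in E14.5 WT, which was the highest of the neural gates at E14.5.

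Stat3, the transcription factor that both chains activate, followed glia at P0 and intermediate progenitors at E14.5. In astrocytes it stood at 214 CPM (192 to 238) in P0 KO and 191 (161 to 224) in P0 WT. The radial glia gate held 147 CPM (121 to 176) in P0 KO, 97.1 (73.1 to 126) in P0 WT, 31.9 (24.1 to 41.3) in the library labelled E14.5 KO and 41.6 (27.6 to 60.1) in E14.5 WT, while intermediate progenitors held 62.3, 32.6, 88.2 and 89.4 CPM in that order. Astrocytes and the oligodendrocyte lineage overlapped at the top of the order at P0, and intermediate progenitors stood alone at the top of the neural gates in both E14.5 libraries. Of P0 astrocyte barcodes thinned to 1500 counts, 26.1% in P0 KO and 18.7% in P0 WT had a Stat3 count, against 6.46% and 1.95% of projection neuron barcodes. The unthinned shares were 60.3% and 51.2% against 12.5% and 6.07%.

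Egfr had the widest range. Summed over each library it stood at 85.7 CPM (79.7 to 92.0) in P0 KO, 58.8 (52.8 to 65.2) in P0 WT, 3.12 (2.28 to 4.18) in the library labelled E14.5 KO and 6.06 (4.20 to 8.47) in E14.5 WT; in such a sum over all barcodes, fewer cells of a type and less RNA per cell cannot be told apart. Within the radial glia gate it stood at 258 CPM (224 to 296) in P0 KO and 224 (187 to 267) in P0 WT, against 7.83 (4.28 to 13.1), from 14 counts, in the library labelled E14.5 KO and 13.4 (6.11 to 25.4), from 9 counts, in E14.5 WT. Of those 9 counts 1 barcode held 44.4%. Astrocytes held 139 CPM (122 to 159) in P0 KO and 94.1 (73.7 to 118) in P0 WT, and the oligodendrocyte lineage 74.2 and 129. Projection neurons held 5 counts in P0 KO, 2 in P0 WT and 0 in both E14.5 libraries, which allows up to 0.555 CPM in the library labelled E14.5 KO and 1.23 in E14.5 WT. After thinning, 27.7% of radial glia barcodes in P0 KO, 23.3% in P0 WT and 0.621% in the library labelled E14.5 KO had an Egfr count, and 0 of 62 in E14.5 WT, which allows a share of up to 5.78% (exact binomial). Projection neurons gave 0.891% in P0 KO and 0% in the other libraries after thinning. Unthinned, the radial glia shares were 60.4%, 58.5%, 1.35% and 6.78%, at median depths of 6462, 7112, 2868 and 8548 counts, and those of projection neurons 1.04%, 0.449%, 0% and 0%.

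**Figure D2:**
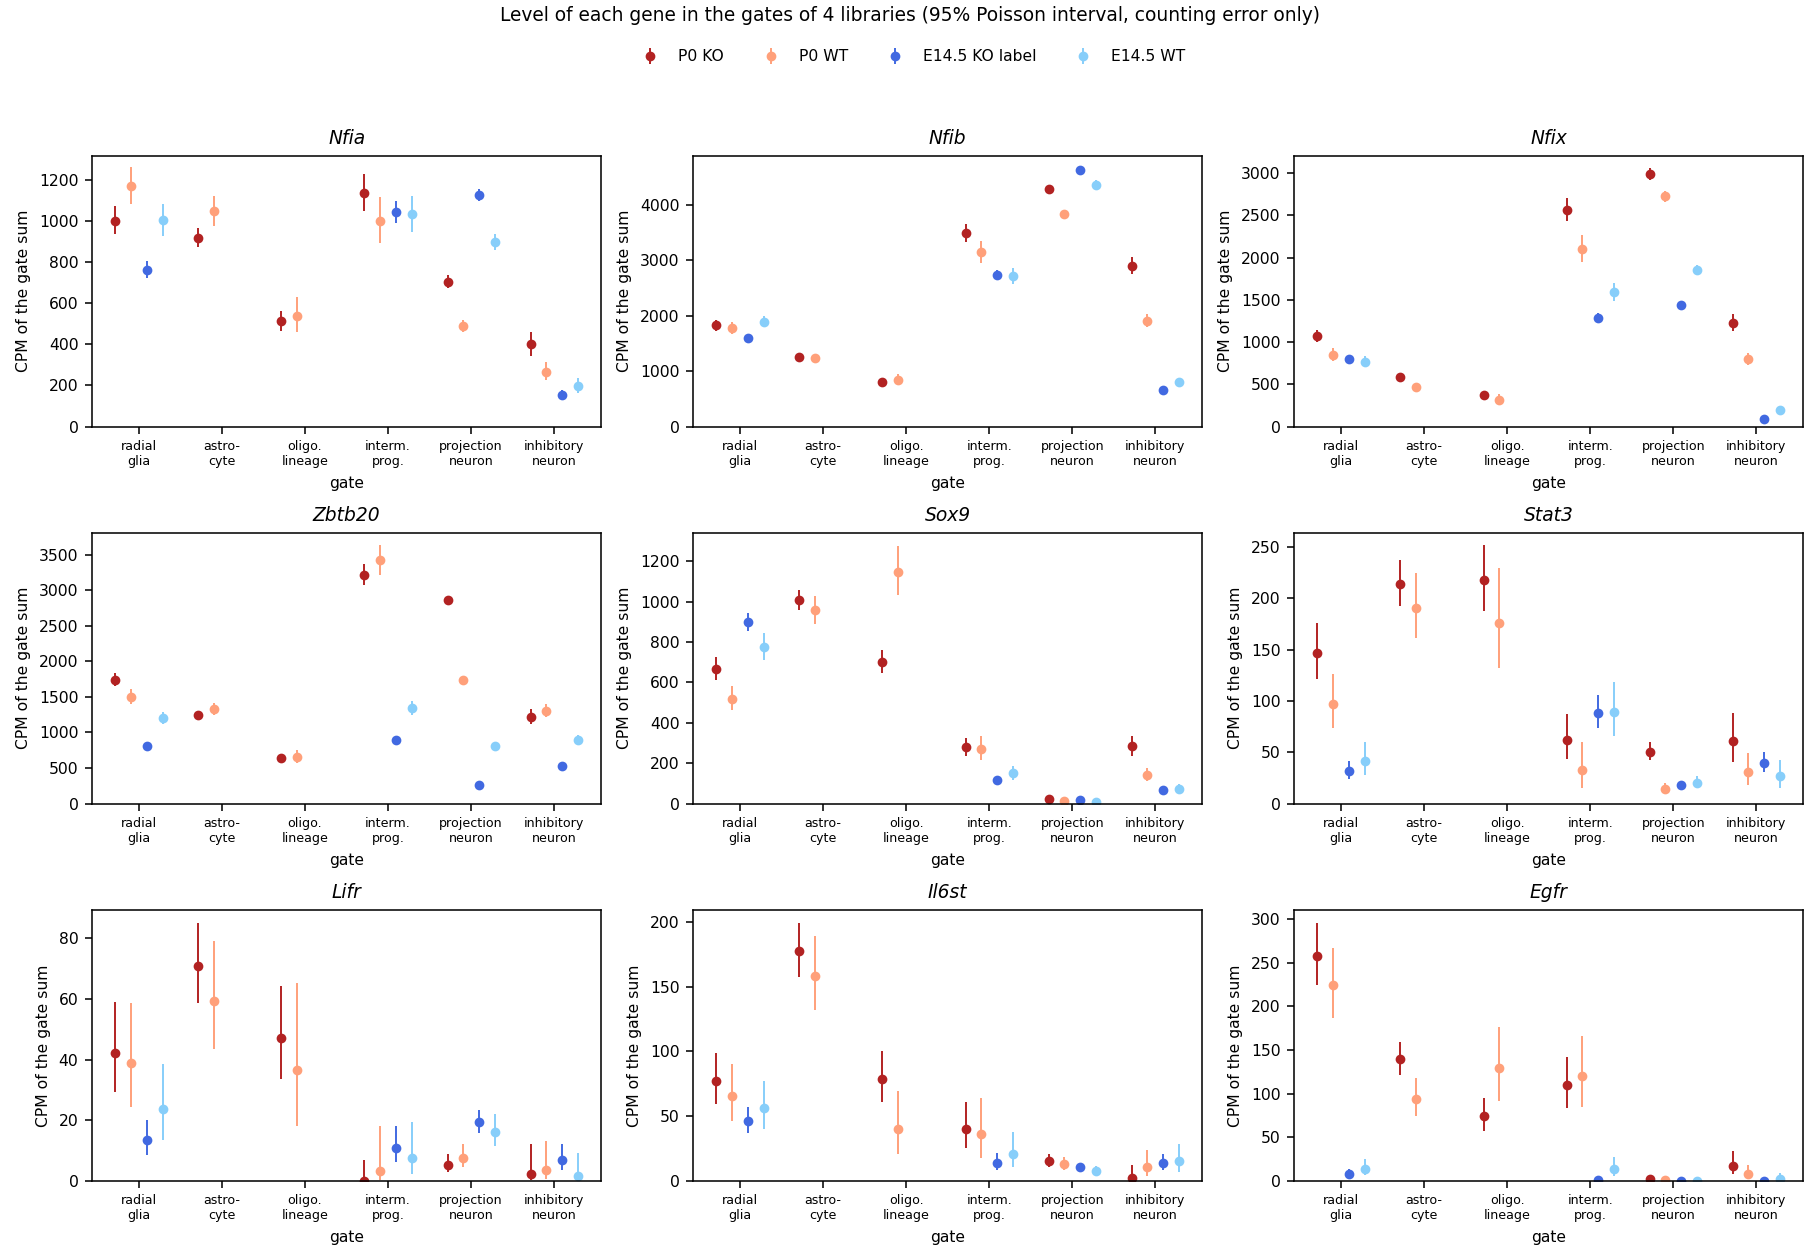
Level of each of the 9 genes (CPM of the gate sum, y axis) in each gate (x axis) of P0 KO, P0 WT, the library labelled E14.5 KO and E14.5 WT, with 95% Poisson intervals. Nfib and Nfix peak in projection neurons, Sox9 and Il6st in progenitor and glial gates, and Egfr is near 0 in both E14.5 libraries.

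Set over the projection neurons of the same library, the 9 genes parted along these lines. A ratio of at least 1.5-fold in either direction, with at least 30 counts over both sums, is called here, and a call is a description of size. In P0 KO, astrocytes were 1.5-fold above projection neurons for 5 of 9 measured members (29.4% of all genes measured) and below for 3 (28.0%), and in P0 WT for 6 (25.3%) and 2 (32.4%). Sox9 was 45.9-fold, Egfr 74.8-fold, Lifr 13.6-fold, Il6st 11.9-fold and Stat3 4.22-fold higher in astrocytes of P0 KO, and 65.3-fold, 112-fold, 7.85-fold, 12.6-fold and 13.4-fold in those of P0 WT. Nfib, Nfix and Zbtb20 had log2 ratios of -1.77, -2.36 and -1.19 in P0 KO and -1.64, -2.54 and -0.39 in P0 WT. Nfia was the sixth higher member of P0 WT, at 2.15-fold, and stood at 1.30-fold in P0 KO. Radial glia of the library labelled E14.5 KO lay above projection neurons for 4 of 8 measured members (29.6%) and below for 2 (25.8%), and those of E14.5 WT for 3 (28.8%) and 2 (27.0%). Sox9, Il6st and Stat3 were higher in both, and Zbtb20 was 3.11-fold higher in the radial glia of the library labelled E14.5 KO and 1.49-fold in those of E14.5 WT. These gates were built from markers that go with glia or neurons, and members that share cells with those markers separate with them.

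No member was past 1.5-fold between KO and WT astrocytes at P0. Of 9 measured members none was called in either direction (18.9% of all genes measured in this gate were), with a median log2 ratio of 0.16, beside 0.05 over all genes. Egfr was nearest to the threshold, at 139 CPM in P0 KO against 94.1 in P0 WT, a log2 ratio of 0.57 (0.18 to 0.97), and it passed it at 0.82 as a mean over barcodes, 0.65 outside the cell cycle and 0.61 without the highest doublet scores. Nfix stood at 0.32 (0.14 to 0.49) on the log2 scale and reached 0.71 with the stricter gate, and Nfia at -0.19 (-0.31 to -0.06), and the intervals of the other 6 held 0. Among radial glia 1 of 9 members was higher (12.1%) and none lower (7.42%). That member was Stat3, from 118 counts in P0 KO against 55 in P0 WT, at 0.59 (0.12 to 1.08), and it lay under the threshold with TMM scaling (0.55), outside the cycle (0.44) and without the highest doublet scores (0.53). Nfia had the same direction in both gates, at -0.22 (-0.37 to -0.07) in radial glia, and so did Nfix, at 0.34 (0.18 to 0.51), which passed the threshold outside the cycle (0.65). With radial glia and astrocytes summed, a gate added after seeing the data, no member passed 1.5-fold and Stat3 stood at 0.34.

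In the oligodendrocyte lineage of P0, 1 of 9 members was higher in KO (13.7%) and 2 lower (7.51%). Sox9 stood at 704 CPM in P0 KO against 1150 in P0 WT, a log2 ratio of -0.71 (-0.90 to -0.51) that was -0.48 after thinning. Egfr stood at 74.2 CPM in P0 KO against 129 in P0 WT, at -0.80 (-1.40 to -0.19). Il6st was higher, at 0.99 (0.09 to 2.01), from 67 counts in P0 KO against 12 in P0 WT, and reached 2.27 with the stricter gate.

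Projection neurons of P0 KO held more Stat3 and Zbtb20 than those of P0 WT. In projection neurons 2 of 8 measured members were higher in KO (6.62% of all genes) and none lower (5.84%). Stat3 stood at 50.7 CPM (42.5 to 59.9), from 136 counts, in P0 KO against 14.3 (9.88 to 19.9), from 34 counts, in P0 WT, which is 3.55-fold, with a log2 ratio of 1.83 (1.28 to 2.41), and it kept its call in all alternatives. Zbtb20 stood at 2860 CPM in P0 KO against 1730 in P0 WT, at 0.72 (0.67 to 0.78), and kept its call likewise. Nfia stood at 0.53 (0.43 to 0.64), under the threshold, and passed it with the stricter gate (0.68). Sox9 stood at 22.0 CPM in P0 KO against 14.7 in P0 WT, at 0.58 with an interval that held 0 (-0.05 to 1.23), and passed the threshold with the stricter gate (0.75). Markers of glia were higher in the same gate: the summed astrocyte panel stood at 209 CPM in P0 KO against 137 in P0 WT, with 2 and 3 of its 12 markers at 0 (S100b and Agt in P0 KO; Aqp4, Gfap and Agt in P0 WT), and the summed radial glia panel, with none of 12 at 0, at 394 against 283. Of the astrocyte genes downstream of NFI, SOX9 or STAT3, 7 of 11 measured there were higher in KO and none lower, with a median log2 ratio of 0.81. That list overlaps the panels just given: Gfap, Aqp4, Aldoc, Slc1a2 and others are in the astrocyte panel, and Slc1a3 and Fabp7 in the radial glia panel. The part of these markers in the ratios was not tested. Sox5, a marker of projection neuron subtypes, stood in the same gate at 78.2 CPM in P0 KO against 117 in P0 WT, and its part in these ratios was not tested. In inhibitory neurons 4 of 6 measured members were higher in KO (11.2%) and none lower (11.0%): Sox9 at 1.00 (0.58 to 1.42), Stat3 at 0.99 (0.07 to 1.95), Nfix at 0.62 (0.44 to 0.80) and Nfib at 0.61 (0.49 to 0.72). Nfia lay just under the threshold, at 0.58 (0.26 to 0.90), and Zbtb20 at -0.10. Progenitor markers were higher in the same gate: the summed radial glia panel stood at 1249 CPM in P0 KO against 827 in P0 WT, with Hes1 alone of 12 at 0 in both, the intermediate progenitor panel at 677 against 322, with Neurog1 alone of 8 at 0 in both, and 22.1% of barcodes were in the cycle against 15.3%. Partner factors of gliogenesis were higher in KO for 4 of 6 measured, and genes described as lowered by NFI for 4 of 7, with none lower in either list. These lists overlap the panels just given: Sox2, Pax6, Nes, Hes1 and Hes5 are in the radial glia panel and Insm1 in the intermediate progenitor panel. Hes1 is in both lists. The part of these markers was not tested. Nfib and Nfix stood at 0.35 and 0.36 with the stricter gate, and Nfib and Sox9 at 0.37 and 0.53 after thinning. Outside the cycle Sox9 stood at 1.60, and Nfia at 0.83, past the threshold.

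**Figure D3:**
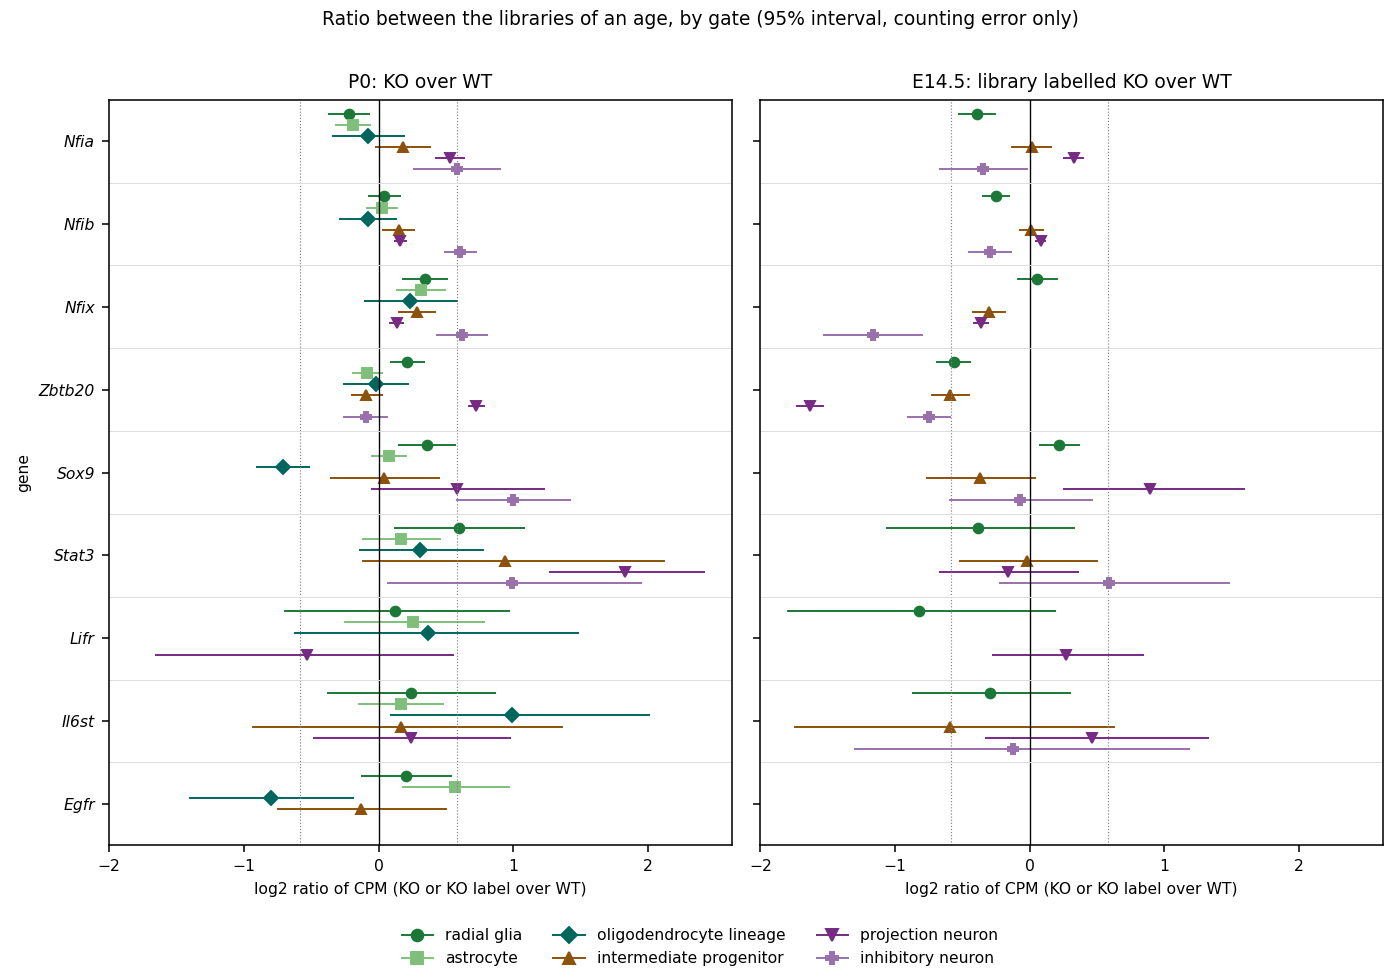
Log2 ratio of CPM (x axis) for each gene (y axis) in each gate, for P0 KO over P0 WT at the left and the library labelled E14.5 KO over E14.5 WT at the right, with 95% counting intervals; dotted lines mark 1.5-fold. Stat3 in P0 projection neurons stands at 1.83 and Zbtb20 in E14.5 projection neurons at -1.63.

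Between the E14.5 embryos the clearest difference was in Zbtb20. It was lower in the library labelled E14.5 KO in each neural gate compared: the log2 ratio was -0.57 (-0.69 to -0.44) in radial glia, -0.59 (-0.72 to -0.45) in intermediate progenitors, -1.63 (-1.73 to -1.53) in projection neurons and -0.75 in inhibitory neurons. The projection neuron value, 3.10-fold lower, kept its call under every alternative, and the radial glia value, just inside 1.5-fold, reached -0.88 after thinning. Radial glia outside the cycle held Zbtb20 at 1097 CPM in the library labelled E14.5 KO against 1179 in E14.5 WT. Those in the cycle held it at 748 against 1226. In the radial glia gate none of 8 measured members was 1.5-fold higher (19.7% of all genes were) and 1 was lower (13.8%): Lifr, from 24 counts in the library labelled E14.5 KO against 16 in E14.5 WT, at -0.82 with an interval that held 0 (-1.80 to 0.19). Just inside the threshold lay Zbtb20. Egfr was under the count minimum. Nfia stood at -0.39 (-0.53 to -0.26), Nfib at -0.25, Sox9 at 0.22 and Nfix at 0.06, where the median of all genes stood at 0.11. The gate was not alike in other respects: 76.2% of its barcodes were in the cycle in the library labelled E14.5 KO against 55.9% in E14.5 WT, and the summed astrocyte panel stood at 848 CPM against 1922, with S100b, Gfap and Agt at 0 counts in the library labelled E14.5 KO. Their part in these ratios was not tested.

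In the projection neurons of E14.5, 1 of 8 members was higher in the library labelled E14.5 KO (11.7%) and 1 lower (8.55%). Sox9 was the higher one, from 103 counts in the library labelled E14.5 KO against 25 in E14.5 WT, at 0.90 (0.25 to 1.59), in cells where it is near background. In the same gate Sox5 stood at 1342 CPM in the library labelled E14.5 KO against 621 in E14.5 WT, and the part of neuron subtypes in the Zbtb20 ratio was not tested. In inhibitory neurons Nfix stood at 86.8 CPM (73.0 to 102) in the library labelled E14.5 KO against 195 (161 to 233) in E14.5 WT, at -1.16 (-1.53 to -0.80), and at -2.19 with the stricter gate.

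Between the ages, Egfr, Stat3 and Lifr were past 1.5-fold higher at P0 in the radial glia and astrocyte gates of both pairs of libraries. The interval of Lifr held 0 in the wild-type radial glia gate. No NFI gene was past 1.5-fold higher in these gates, although Nfia and Nfix passed the threshold in some alternatives given below. In wild type, 3 of 9 members were 1.5-fold higher at P0 in the radial glia gate (15.9% of all genes were) and none lower (13.7%). Egfr stood at 224 CPM in P0 WT against 13.4 in E14.5 WT, 16.8-fold higher, with a log2 ratio of 4.07 (3.10 to 5.23) that was 4.86 with the stricter gate, 4.87 as a mean over barcodes and 5.14 outside the cycle. Stat3 stood at 1.22 (0.54 to 1.94) and Lifr at 0.71 (-0.29 to 1.74), whose interval held 0, while Sox9 stood just inside the threshold on the other side, at -0.58 (-0.79 to -0.37), and passed it with TMM scaling (-0.59), the stricter gate (-0.61) and thinning (-0.93). Il6st stood at 0.21 but at 1.22 with the stricter gate and 1.30 outside the cycle. The NFI genes lay between -0.10 for Nfib and 0.22 for Nfia, and Nfia reached 0.66 after thinning. With the astrocytes of P0 WT set over the radial glia of E14.5 WT, 4 of 9 members were higher (21.2%) and 2 lower (23.8%). Egfr was 7.05-fold, Stat3 4.59-fold, Il6st 2.81-fold and Lifr 2.50-fold higher in P0 WT, Nfib stood at -0.62 (-0.74 to -0.50) and Nfix at -0.71 (-0.90 to -0.51), and Nfia at 0.06.

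The other pair of libraries, P0 KO over the library labelled E14.5 KO, shares no library with the wild-type pair, but its older end was compared with P0 WT above and its younger end is the library whose label Tsku contradicts. Xist had 1 count in P0 KO against 6719 in the library labelled E14.5 KO, so age and sex cannot be told apart in this pair. Its radial glia gate had 5 of 9 members higher at P0 (18.6%) and none lower (18.3%). Egfr stood at 258 CPM in P0 KO against 7.83 in the library labelled E14.5 KO, at 5.04 (4.26 to 5.94), and Stat3 at 2.20 (1.73 to 2.68). Lifr stood at 1.65 (0.86 to 2.47), Zbtb20 at 1.10 (0.99 to 1.20) and Il6st at 0.75 (0.25 to 1.24). Outside the cycle Zbtb20 stood at 0.58 and lost its call, Egfr stood at 3.63 and Stat3 at 1.36. Nfia stood at 0.39 and reached 0.61 after thinning, and Nfix stood at 0.43 and reached 0.70 with the stricter gate. After thinning, Egfr stood at 6.06 and Stat3 at 1.22, and Egfr stood at 5.78 with the stricter gate. With astrocytes of P0 KO over these radial glia, 5 of 9 were higher (25.6%) and none lower (27.2%), Egfr at 4.15 (3.38 to 5.05), Stat3 at 2.75 (2.34 to 3.18), Lifr at 2.40, Il6st at 1.95 and Zbtb20 at 0.62, with Nfia at 0.27, Nfib at -0.35 and Nfix at -0.45.

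Neurons differed between ages in other members. In wild-type projection neurons 2 of 8 members were higher at P0 (14.8%) and 2 lower (10.1%): Zbtb20 at 1730 CPM in P0 WT against 810 in E14.5 WT, at 1.10 (1.02 to 1.17), Il6st at 0.77 with an interval that held 0 (-0.12 to 1.70), Nfia at -0.88 (-0.98 to -0.78) and Lifr at -1.08 (-1.97 to -0.24). In the knockout-labelled pair 3 of 8 were higher (18.9%) and 2 lower (17.0%), with Zbtb20 10.9-fold higher in P0 KO, Stat3 at 1.47, Nfix at 1.05, Nfia at -0.68 and Lifr at -1.88. Stat3 had the other sign in wild type, at 14.3 CPM in P0 WT against 20.5 in E14.5 WT, -0.52 with an interval that held 0 (-1.20 to 0.14), and was past 1.5-fold lower with TMM scaling (-0.61), the stricter gate (-0.88) and as a mean over barcodes (-0.77). Sox5 differed in the same gate: it stood at 78.2 CPM in P0 KO and 117 in P0 WT, against 1342 in the library labelled E14.5 KO and 621 in E14.5 WT. Its part was not tested. In inhibitory neurons Nfix stood at 1226 CPM (1127 to 1331) in P0 KO and 798 (725 to 876) in P0 WT, against 86.8 in the library labelled E14.5 KO and 195 in E14.5 WT, which is a log2 ratio of 2.04 (1.74 to 2.34) in wild type and 3.82 (3.55 to 4.10) in the other pair.

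**Figure D4:**
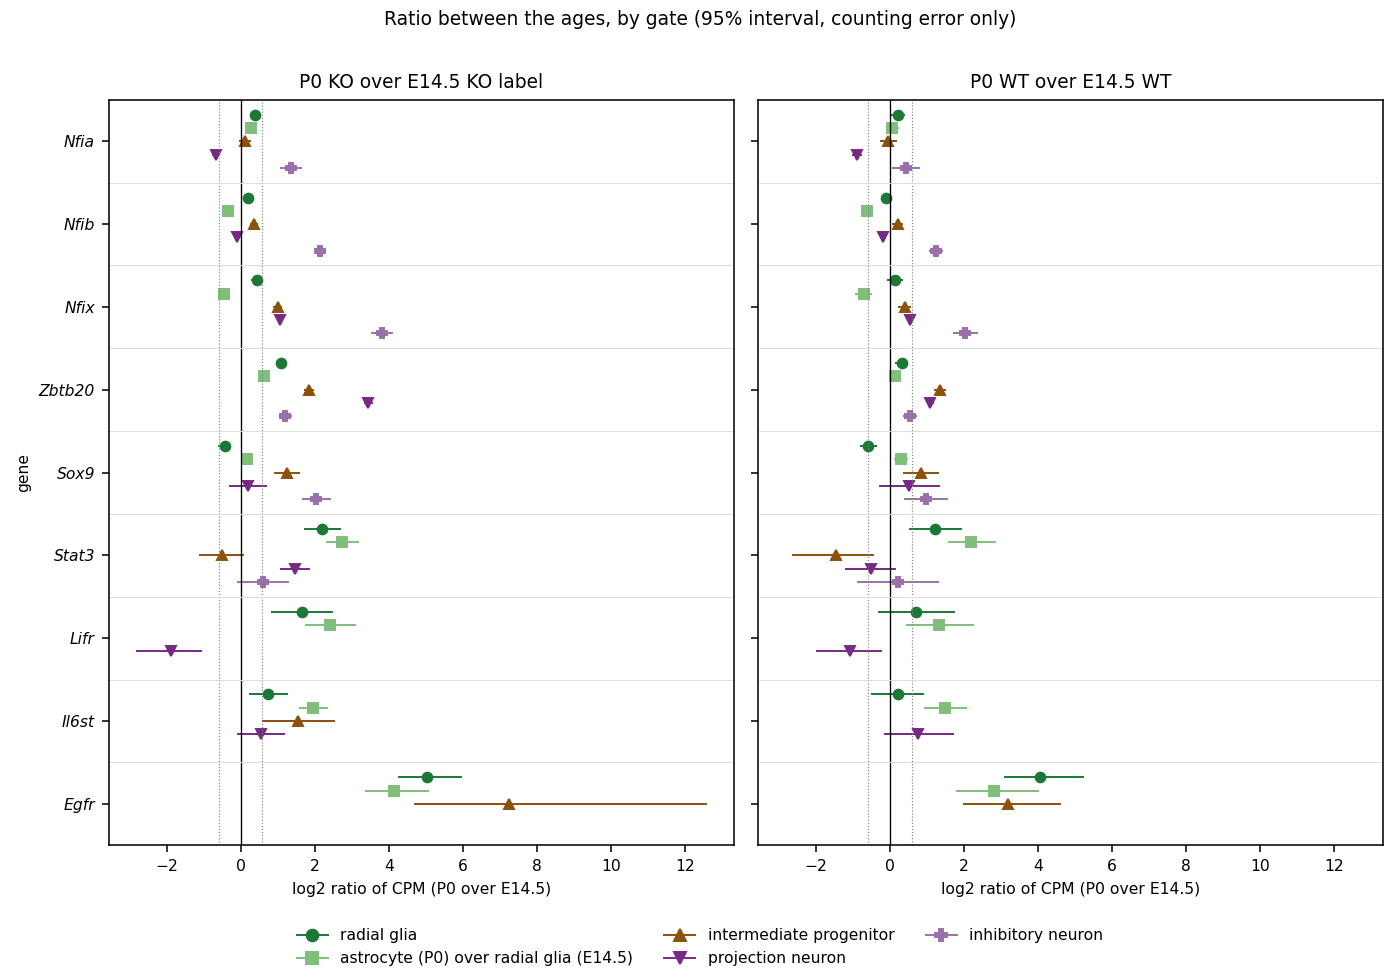
Log2 ratio of CPM (x axis) for each gene (y axis) at P0 over E14.5, with P0 KO over the library labelled E14.5 KO at the left and P0 WT over E14.5 WT at the right, with 95% counting intervals; dotted lines mark 1.5-fold. Egfr in the radial glia gate stands at 5.04 at the left and 4.07 at the right, and the NFI genes in that gate lie within 1.5-fold of 0.

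Levels differed with the cell cycle. In the radial glia gate Sox9 was higher outside the cycle than in it in every library, at 832 against 549 CPM in P0 KO, 710 against 424 in P0 WT, 934 against 893 in the library labelled E14.5 KO, where the interval of the ratio held 0, and 892 against 680 in E14.5 WT. Stat3 in the library labelled E14.5 KO stood at 62.5 CPM outside the cycle and 24.8 in it, and Zbtb20 at 1097 and 748. Zbtb20 did not keep that direction, at 1641 CPM outside the cycle and 1812 in it in P0 KO, 1639 and 1434 in P0 WT and 1179 and 1226 in E14.5 WT, each with an interval of the ratio that held 0. The percentage of the radial glia gate in the cycle was 50.9% in P0 KO, 58.5% in P0 WT, 76.2% in the library labelled E14.5 KO and 55.9% in E14.5 WT.

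Genes around the members were followed through lists that hold no member, with the share of all genes past 1.5-fold given beside the counts. The 7 cytokine ligands of the LIF family were below the minimum in each comparison of the radial glia, astrocyte or oligodendrocyte lineage gate taken singly. In projection neurons 1 ligand was measured for P0 KO over P0 WT, and it was higher (6.62% of all genes were). The same count held there with age in wild type (14.8%) and in the other pair (18.9%). Of the receptors and kinases, Jak2, a kinase bound to gp130, stood at 69.7 CPM in astrocytes of P0 KO against 111 in those of P0 WT, at -0.67, and was the one past 1.5-fold among 4 measured. Among 12 measured STAT and feedback genes in P0 astrocytes 2 were higher in KO (18.9% of all genes were past 1.5-fold in either direction): Socs2, a suppressor of cytokine signalling, at 46.9 CPM in P0 KO against 10.3 in P0 WT, 2.18 (1.13 to 3.45), and Stat2 at 1.59. Socs2 had the same direction in the radial glia gate, with 68 counts in P0 KO against 3 in P0 WT, and Socs3 stood there at 154 CPM in P0 KO against 93.5 in P0 WT, at 0.72 (0.24 to 1.21). In the P0 oligodendrocyte lineage 3 of 10 were higher in KO (13.7% of all genes), Socs3 at 134 CPM against 82.8 among them, at 0.70. Between the E14.5 embryos Socs3 stood at 33.6 CPM in radial glia of the library labelled E14.5 KO against 50.5 in E14.5 WT, at -0.59 with an interval that held 0 (-1.22 to 0.06), and Il11ra1, a receptor for interleukin 11, at 6.71 against 37.1.

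With age, Socs3 was higher in P0 glia in both pairs. Astrocytes of P0 WT held 278 CPM against 50.5 in radial glia of E14.5 WT, at 2.46 (1.94 to 3.03), and astrocytes of P0 KO held 285 against 33.6 in the library labelled E14.5 KO, at 3.09 (2.70 to 3.50). Cntfr, the receptor for ciliary neurotrophic factor, ran the other way, at 17.6 CPM in radial glia of P0 WT against 54.9 in E14.5 WT, and at 11.2 in P0 KO against 71.6 in the library labelled E14.5 KO. Of the ERBB receptors and regulators, Lrig1, which lowers ERBB signalling, stood at 379 CPM in astrocytes of P0 WT against 90.5 in radial glia of E14.5 WT, at 2.07, and at 445 in P0 KO against 57.6 in the library labelled E14.5 KO, at 2.95. Of the EGFR ligands, Hbegf stood at 85.1 CPM in astrocytes of P0 WT against 25.2 in radial glia of E14.5 WT, and at 38.8 in P0 KO against 5.59 in the library labelled E14.5 KO. The same gene was lower in astrocytes of P0 KO than in those of P0 WT, at -1.13 (-1.65 to -0.61).

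Of 18 astrocyte genes known to lie downstream of NFI, SOX9 or STAT3, 17 were measured in P0 astrocytes and 3 were higher in KO and none lower (18.9% of all genes in either direction), with a median of 0.35 beside 0.05 over all genes. Gfap, the intermediate filament of astrocytes and a STAT3 target, stood at 259 CPM in P0 KO against 112 in P0 WT, at 1.21 (0.87 to 1.56), and Apcdd1, an inhibitor of WNT signalling, at 54.9 against 15.5, at 1.83 (0.95 to 2.83). Gfap and others of this list are in the astrocyte panel that made the gate. That panel summed to 14556.5 CPM in P0 KO against 11122.3 in P0 WT there. The radial glia panel, which holds Slc1a3 and Fabp7 of the list, summed to 31596.6 against 32945.5. The part of these panels in the ratios was not tested. In radial glia of the E14.5 embryos 7 of 15 were lower in the library labelled E14.5 KO (13.8% of all genes) and none higher (19.7%), with a median of -0.50 beside 0.11 over all genes: Sparcl1 stood at 29.1 CPM in the library labelled E14.5 KO against 191 in E14.5 WT and Aldh1l1 at 30.2 against 123. Both are markers of the astrocyte panel, whose counts the radial glia gate limits. Between ages 16 of 17 were higher (21.2% of all genes) and 1 lower (23.8%) in the astrocytes of P0 WT over radial glia of E14.5 WT, and the same numbers held for P0 KO over the library labelled E14.5 KO (25.6% and 27.2%), but Gfap, Aqp4, Aldoc, Slc1a2 and others of this list are in the astrocyte panel that made the gate. Apcdd1, which no gate used, was the lower one, at -3.22 in wild type and -0.89 in the other pair.

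Partner factors of gliogenesis were measured for 16 of 18 in P0 astrocytes, where none was higher in KO and 1 lower (18.9% of all genes in either direction). Hes1, a Notch target that holds progenitors back from differentiation and a marker of the radial glia panel, was the lower one, at 168 CPM in P0 KO against 509 in P0 WT, at -1.60 (-1.83 to -1.38). In the P0 oligodendrocyte lineage Hes5 stood at 658 CPM in P0 KO against 1369 in P0 WT, at -1.06 (-1.24 to -0.87). At E14.5 Lhx2, a factor known to keep progenitors neurogenic, stood at 644 CPM in radial glia of the library labelled E14.5 KO against 309 in E14.5 WT, at 1.06 (0.85 to 1.28), and Id3 at 119 against 325. Among genes described as lowered by NFI, 4 of 9 were higher (19.7% of all genes) and 1 lower (13.8%) in radial glia of the library labelled E14.5 KO, Ezh2, a histone methyltransferase, at 690 CPM against 411. Sox2, Pax6, Hes1 and Nes of this list are in the radial glia panel that made the gate. Hmga2, a chromatin protein of early progenitors, was lower at P0 in the radial glia gate, at 7.06 CPM in P0 WT against 47.5 in E14.5 WT, at -2.75, and at -4.67 in P0 KO over the library labelled E14.5 KO.

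Over the 20 gate sums of at least 50 barcodes, which share libraries and depths, the genes with the pattern most like each member were ranked among 10450 genes by Pearson correlation of log2(CPM + 10). Nfib and Nfix were most like each other (r = 0.94). Nfia was most like Lhx2 (0.887), Zbtb20 like Mir99ahg (0.903), Sox9 like the gate marker Ddah1 (0.946) and Notch1 (0.943), Stat3 like Specc1 (0.902), Lifr like Asph (0.930), Il6st like S1pr1 (0.959) and Egfr like Cdh20 (0.945). Among members, Il6st went with Sox9 (0.774), Lifr (0.770) and Egfr (0.760), and Nfib ran against Sox9 (-0.55).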

How the data were processed

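Single-cell RNA libraries of 4 cortices, each of 1 mouse, were made with the Asteria kit from 15000 input cells per sample, per the labels' protocols. The values are whole-number counts per feature and barcode, deposited without scaling. The submitters' processing notes name GRCm39, R 4.3.2, Seurat 5 and FastQC 0.12.1. The sources used here do not give the aligner, counter, annotation release, barcode filter or collapse of reads to molecules, so intervals and limits cover counting error only. The members and gene lists were chosen with earlier results of these data known.

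Kept barcodes had at least 500 counts, 300 genes and no more than 10% mitochondrial counts (1436 of 1456 in P0 KO, 1047 of 1073 in P0 WT, 4107 of 4119 in the library labelled E14.5 KO and 620 of 622 in E14.5 WT). They held 8894856, 6042033, 14404051 and 5606381 counts. Gates used panel counts per 10000 counts of a barcode, with thresholds set after seeing the data. Non-neural barcodes were set aside first: microglia, endothelium and pericytes at 30, meningeal fibroblasts at 40, choroid plexus and erythroid cells at 100. Radial glia had at least 40 of their panel, under 60 of the astrocyte panel, under 50 pan-neuronal, under 20 inhibitory and under 20 oligodendrocyte lineage counts. Astrocytes met the same rule with at least 60 of the astrocyte panel. The oligodendrocyte lineage had at least 40 and under 50 pan-neuronal, intermediate progenitors at least 30 and under 20 inhibitory. Neurons had at least 50 pan-neuronal, under 30 radial glia and under 20 oligodendrocyte lineage counts, and were projection or inhibitory neurons with at least 20 counts of that panel and at least 2 times the other. Barcodes with at least 20 cycling panel counts were called in the cycle. Ungated barcodes made up 12.7%, 11.7%, 16.5% and 12.6% in the same order of libraries. Scrublet (scanpy 1.11.5) called 6, 3, 0 and 2 doublets, which is too few to have worked, so all were kept.

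Counts were summed per gate and scaled to CPM, with exact Poisson intervals for levels, conditional binomial intervals for ratios and exact binomial intervals for shares. No test between groups was possible with 1 animal each, and no batch is named in the labels. Ratios were tested on simulated counts first. The named genes are the members, the 2 genes of each list with the largest and the 2 with the smallest ratio in a glial gate, and the 3 genes most like each member, of which the text gives a selection. Alternatives were TMM scaling (edgeR 4.0.16, R 4.3.3), all deposited barcodes, stricter barcode and gate rules, means over barcodes, thinning to 1500 counts, no count minimum and removal of the top 5% of doublet scores. Barcodes outside the cycle and the sum of radial glia and astrocytes were added after seeing the data. Nrg1 has 2 feature rows, of which the second held 0 counts. Scripts ran in Python 3.11.15 with matplotlib 3.10.9, pandas 2.3.3, scipy 1.17.1 and numpy 2.4.6.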

Additional observations from a re-analysis of the deposited data

Results flagged for a closer look

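The 9 members were compared at both ages in radial glia, intermediate progenitors, projection neurons and inhibitory neurons. For 7 pairs of gene and gate, KO and WT differed in opposite directions at the 2 ages, with intervals on either side of 0. The share of all genes with this pattern is not known here, so the count is a description. Zbtb20 had a log2 ratio of 0.21 for P0 KO over WT and -0.57 for the library labelled E14.5 KO over WT in the radial glia gate, and 0.72 and -1.63 in projection neurons. Radial glia outside the cycle held Zbtb20 at 1641 CPM in P0 KO against 1639 in P0 WT. At E14.5 they held 1097 CPM in the library labelled E14.5 KO against 1179 in E14.5 WT. Nfix, an NFI factor highest in projection neurons, stood at 0.29 and -0.30 in intermediate progenitors and 0.13 and -0.36 in projection neurons. It stood at 0.62 and -1.16 in inhibitory neurons. In inhibitory neurons Nfia stood at 0.58 and -0.35 and Nfib at 0.61 and -0.30, so that the 3 NFI genes had one direction at each age. The difference between the ages was not tested, since each group is 1 animal. Tsku counts contradict the E14.5 label, and genotype label and sex cannot be told apart at that age.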

How the results depend on the processing

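No paired analysis was possible because each group is 1 animal. Of the 63 member ratios past 1.5-fold, 11 came under it in at least 1 alternative, and 31 under it passed it in at least 1. All 158 ratios moved by less than their counting interval with all deposited barcodes and with the stricter barcode filter. Thinning left 62 of 127 unmoved and turned 1 round: Stat3 in E14.5 inhibitory neurons, at -0.050 in place of 0.59. TMM scaling moved the age ratios by down to -0.15 on the log2 scale.

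Counts of calls over members and gates for the library labelled E14.5 KO over WT were 2 higher, and 1 under TMM and outside the cycle. For P0 KO over WT, 9 were higher, and 4 after thinning, and 2 were lower, and 4 with no minimum. In wild type with age 3 were lower, and 5 with TMM, the stricter gate or outside the cycle and 6 as means over barcodes. In the other pair 2 were lower, and 5 with no minimum. Of listed genes in the radial glia gate, 10 were higher in the library labelled E14.5 KO, and 6 with the stricter gate, as means or outside the cycle, and 18 were lower, with 32 without a minimum and 10 outside the cycle. For P0 KO over WT 5 were lower, with 14 in the stricter gate, 8 as means or outside the cycle and 19 without a minimum, and 9 higher, with 15 without a minimum. In wild type with age 24 were higher, with 9 after thinning, and 8 lower, with 2 after thinning and 16 without a minimum. In the other pair 13 were lower, and 8 with the stricter gate. Members higher in radial glia than in projection neurons numbered 3 in E14.5 WT and 5 with the stricter gate. They numbered 5 in P0 KO and 3 after thinning, and 6 in P0 WT and 2 after thinning. Thinned sums are smaller, and a call still needed 30 counts over both sums, so members with few counts could drop out unmeasured. The part of this in the lower numbers was not tested. Low counts limit the E14.5 values of Lifr and Egfr, which rest on 24 or fewer counts in radial glia.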

Other observations

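Some members were high in cells outside the neural lineage. Il6st, the shared receptor chain, stood at 347 CPM (248 to 472) in 15 meningeal fibroblast barcodes of P0 KO, 224 (102 to 425) in 5 of P0 WT, 296 (248 to 349) in 99 of the library labelled E14.5 KO and 251 (166 to 362) in 13 of E14.5 WT, beside 178 and 159 CPM in astrocytes of P0 KO and P0 WT. Stat3 stood at 250 CPM in microglia of P0 KO, 183 in P0 WT, 107 in the library labelled E14.5 KO and 259 in E14.5 WT. Sox9 stood at 473 CPM in the choroid plexus gate of the library labelled E14.5 KO and 447 in that of E14.5 WT, from 135 and 20 barcodes.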
